A study of Helianthus annuus with 9 samples.

Results

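The 22-nt small interfering RNAs (siRNAs) with a guide strand that starts with A, C or G were described over 3 stages of seed development in sunflower, Helianthus annuus. A member was any siRNA entry of the deposited expression table whose listed guide is 22 nt long and has one of these first bases. There were 1388 such entries, 467 starting with A, 824 with C and 97 with G, beside 316 that start with U, and they belong to 7735 siRNA entries of all lengths and 8473 small RNA entries in all. The libraries came from seeds of the line L-1-OL-1, grown in the field without any treatment named in the labels, and were taken at 7, 22 and 37 days, with 3 libraries a day. The labels give neither the start of the day count nor the plants behind each library. The p-values therefore measure the spread between these libraries, which may be technical. No tissue marker was analysed here, since the entries used are small RNAs. Rows of the same table typed exon, intron or intergenic were left out and entered only the totals of all reads.

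Plant siRNAs are cut from double-stranded RNA by DICER-LIKE enzymes as a duplex of a guide and a passenger strand with short 3′ overhangs. In Arabidopsis, DICER-LIKE 2 makes the 22-nt class, and a 22-nt small RNA bound to ARGONAUTE 1 can lead an RNA-dependent RNA polymerase to copy its target into further, secondary siRNAs. The first base of a guide bears on its partner in that species: ARGONAUTE 1 favours U, ARGONAUTE 2 and ARGONAUTE 4 favour A, and ARGONAUTE 5 favours C. Whether these preferences hold for the sunflower entries was not tested, and the files name neither a target nor a source locus for them.

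The sequences are those of the deposited siRNA list, written 5′ to 3′ with T for U and the first base in capitals. They have no genome position in the files. The first set holds the 5 guides of each first base with the highest mean level over the 9 libraries, which weigh most in the read totals of each base.
novel_sir5940: Atttgagctattgatgttagga
novel_sir17197: Attgagcctaagatgtataatt
novel_sir6306: Agagcaacgattcagtggaggg
novel_sir8198: Agaggcgttcagtcataatcca
novel_sir10453: Atgagcacatggacctgaacgg
novel_sir7416: Caccgacagccgacgggttcgg
novel_sir5648: Cgctcaggatgtgaaaaccggc
novel_sir8630: Cgcaccgacggccgctccgccc
novel_sir5851: Cgctggattatgactgaacgcc
novel_sir8948: Ccgccttgaagtacaattccct
novel_sir10019: Gcctacattgttccatcgacca
novel_sir13054: Ggaccattcaatcggtaggagc
novel_sir11448: Gcgcgggccgccttgaagtaca
novel_sir13388: Gagtatatagccttggccgaca
novel_sir15465: Gtgacgttggttttgctccact

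The second set holds entries with the largest rise or fall between days for each first base. The guide of novel_sir12307 shares a run of 18 nt with that of novel_sir9288, so this pair is not independent in sequence.
novel_sir5239: Aaaaggtcctatgtatcgcggg
novel_sir9288: Cagcgttgtcgacaagagcctt
novel_sir12307: Gttgtcgacaagagccttgagt
novel_sir8475: Gacccatatgtggtagcggcta
novel_sir3293: Atgtgtttcacggccaattgct
novel_sir17319: Ccattgtaagccaccaataaaa
novel_sir7554: Gaaatttcggatacggattcgg

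The third set shows overlapping guides of a single sequence family each, first the family of novel_sir17197 and then that of novel_sir4519, since the members of each moved together.
novel_sir13922: Aacatccattgagcctaagatg
novel_sir11881: Cattgagcctaagatgtataat
novel_sir3790: Catccattgagcctaagatgta
novel_sir4519: Ccataaacaagaggcaccggtt
novel_sir16644: Caagaggcaccggtttaacact
novel_sir16857: Aacaagaggcaccggtttaaca
novel_sir1449: Agaggcaccggtttaacacttg

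The reads behind these values ranged from 2208822 to 4050364 per library in small RNA entries. All rows of the expression table together held 31011803 to 34397084, called all reads here. The A-, C- and G-start 22-nt siRNAs took 359461 to 605437 reads per library. Between 896 and 1225 of the 1388 entries had a count above 0 in a given library. An siRNA is listed at 0 or at 10 or more reads, and 24.4% of the members' values are 0, each of which was taken to allow up to 9 reads. Levels are in CPM, a read count scaled to the small RNA reads of the library and to its TMM (trimmed mean of M values) normalization factor. No 2 libraries of a day were identical, and pairs of them differed by more than counting noise, with chi-square values of 10.1 to 81.6 per degree of freedom.

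The first bases of the counted entries were not those of the whole siRNA list. Among counted 22-nt siRNAs, C led with 48.4%, followed by A with 27.4%, U with 18.5% and G with 5.69%. Over the whole 22-nt list, with guides read as described next, U led with 43.8%, followed by C with 32.7% and A with 12.5%. The list holds 19974 duplexes. In 7812 of them the guide as written pairs with the passenger so that both strands end in 2-nt 3′ overhangs, and 7732 of these have counts. In the other 12162 the strands form such a duplex only when the guide is read from its last letter, and 0 of these have counts. Read that way, the 22-nt guides without counts started with U in 59.3%, with C in 23.2%, with G in 14.2% and with A in 3.34%. The guide came before the passenger in letter order in all 7812 duplexes of the first kind and in 0 of the second. Every counted 22-nt U-start guide, 316 of 316, accordingly had a passenger that also starts with U, while 173 A-start, 507 C-start and 63 G-start members had one. Which strand of a duplex is called the guide, and with it the first base used to choose the members, thus follows letter order in the counted entries, and the make-up by first base describes that choice of strand.

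**Figure D1:**
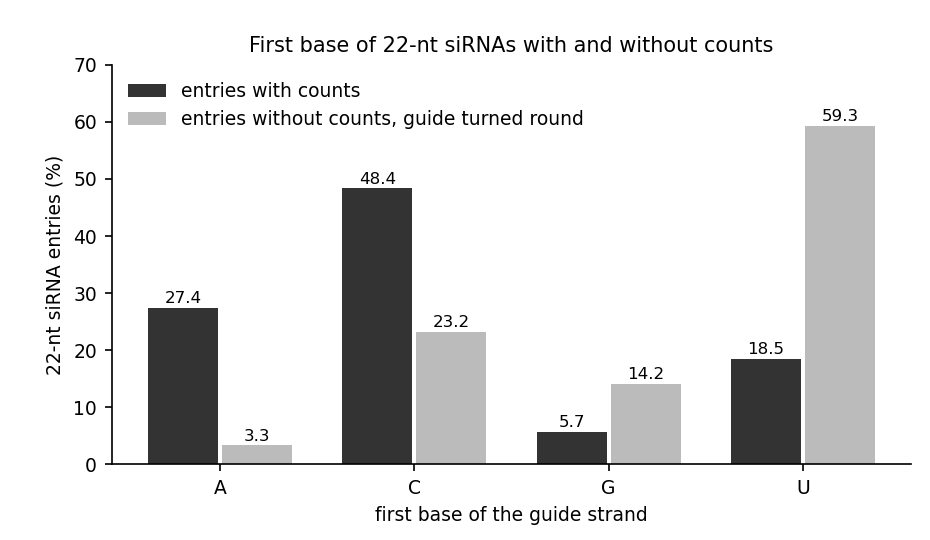
Share of 22-nt siRNA entries (y axis, %) by first base of the guide (x axis), for entries with counts (dark) and for listed entries without counts whose guide is read from its last letter (light). C leads among entries with counts at 48.4%, and U among those without at 59.3%.

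Entries that share a guide did not share counts. Among the members, 13 guides are shared by 27 entries with different passengers, which leaves 1374 distinct guides, and 0 of these 13 guides had equal counts in every library across its entries. Neither the labels nor the file headers say whether reads of the guide, of the passenger or of both were counted. Entries novel_sir7553 and novel_sir7554 share a guide. The A-, C- and G-start entries had a median GC content of 45.5%, 45.5% and 50%, against 40.9% for U-start entries. A stretch of at least 18 nt was shared in the same orientation with another counted guide by 670 members, or 48.3%. The share was 44.0% of U-start 22-nt entries, 44.4% of 21-nt entries and 37.5% of 24-nt entries. In the opposite orientation such a stretch was found for 267 members, or 19.2%, against 8.23% of U-start 22-nt entries, 7.90% of 21-nt entries and 17.6% of 24-nt entries. Among G-start entries this share was 29.9%. Of 1388 members, 44, or 3.17%, lay within a predicted miRNA precursor, and 58, or 4.18%, within the reverse complement of one. These shares were 2.2% and 3.2% for U-start 22-nt entries and 1.95% and 3.32% for 21-nt entries. For 24-nt entries they were 0.17% and 0.69%.

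Reads were held by few entries. The 10 most abundant A-start entries took 47.4% of A-start reads, the 10 most abundant C-start entries took 27.3% of C-start reads, and the 10 most abundant G-start entries took 56.0% of G-start reads. At least 50% of the reads of a first base stood in its 11 most abundant A-start, 36 C-start or 9 G-start entries. The median entry had 576, 559 and 763 reads over the 9 libraries for A, C and G.

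As a share of all 22-nt siRNA reads, C-start entries were lower at the later days and G-start entries higher at day 37. C-start entries held 46.1%, 46.5% and 46.6% in the day 7 libraries, 40.5%, 40.4% and 38.2% at day 22, and 39.6%, 38.4% and 39.9% at day 37. The day 7 libraries lay above all others, while the libraries of days 22 and 37 overlapped. G-start entries held 5.07%, 4.99% and 4.98% at day 7, 5.32%, 5.34% and 4.90% at day 22, and 7.95%, 6.86% and 6.51% at day 37, where every library was above those of the earlier days. A-start entries held 28.8% ± 0.17, 28.7% ± 0.81 and 26.2% ± 0.79 at days 7, 22 and 37 (SD, n = 3 each), and U-start entries held 19.7% ± 0.33, 26.4% ± 0.78 and 27.4% ± 0.47.

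The difference of C-start shares was -6.75 percentage points for day 22 over day 7 and -7.14 for day 37 over day 7, each with p = 0.1 in an exact two-sided permutation test. For G-start shares it was 1.92 points for day 37 over day 22 and 2.09 for day 37 over day 7, also with an exact p = 0.1. With 3 libraries against 3, 0.1 is the smallest p this test can give, and adjusted over the 12 shares and contrasts of this measure it was 0.15, so none passed the threshold. For A-start shares of day 22 over day 7 the difference was -0.08 points with an exact p = 0.9.

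The share of all reads, summed over every row of the expression table, gave another order of days for A- and C-start entries. For G-start entries the means rose from day 7 to day 37 in both measures. At days 7, 22 and 37, C-start entries took 0.666% ± 0.010, 0.802% ± 0.0098 and 0.925% ± 0.053 of all reads. A-start entries took 0.413% ± 0.0088, 0.582% ± 0.042 and 0.619% ± 0.055, and G-start entries took 0.0719% ± 0.0019, 0.105% ± 0.0006 and 0.167% ± 0.0083 at the same days. For every first base, the libraries of days 22 and 37 lay above those of day 7 in this share of all reads, with an exact p = 0.1 and 0.109 after adjustment over 12 tests. Reads in small RNA entries as a whole were also a larger part of the later libraries. As a share of small RNA reads, A-start entries held 5.90% ± 0.054, 5.55% ± 0.30 and 5.18% ± 0.44, C-start entries 9.50% ± 0.13, 7.66% ± 0.070 and 7.74% ± 0.40, and G-start entries 1.03% ± 0.0091, 1.00% ± 0.022 and 1.40% ± 0.078. The ± values are SD over 3 libraries.

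**Figure D2:**
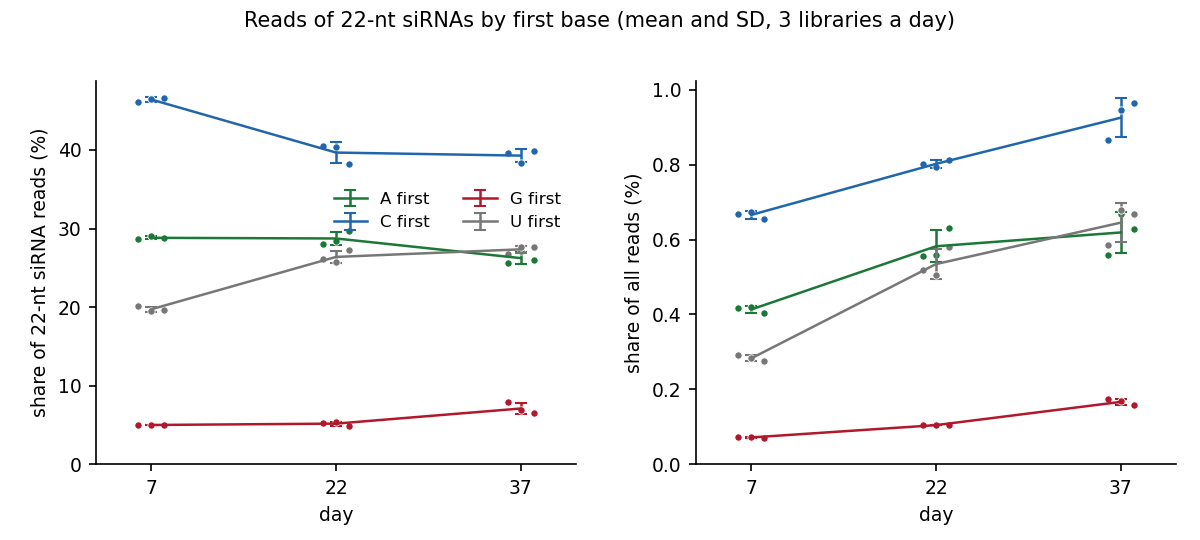
Reads of 22-nt siRNAs by first base as a share of 22-nt siRNA reads (left y axis, %) and of all reads (right y axis, %) against the day of sampling (x axis); points are libraries, lines join means and bars are SD over 3 libraries. The C-start share of 22-nt reads is highest at day 7 in every library, and all 4 first bases take a larger share of all reads at days 22 and 37 than at day 7.

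Of the 1388 entries, 1286 passed the filter on low counts and were tested, 430 starting with A, 768 with C and 88 with G. The other 102 never exceeded 29 reads in a library or 66 reads in total. Over the stages, 598 of the 1388 entries, or 43.1%, had counts in all 9 libraries, about the share among all siRNAs, 43.2%. A further 237 had counts in every library of days 22 and 37 and none at day 7, which was 79 A-start, 146 C-start and 12 G-start entries. The reverse gap, counts in every library of days 7 and 22 and none at day 37, was found for 99 entries, of which 35 start with A, 50 with C and 14 with G. Counts were confined to day 7 for 33 entries, to day 22 for 13 and to day 37 for 24, in each case in all 3 libraries of that day, and 0 entries had counts in every library of days 7 and 37 with none at day 22. Counts in day 7 alone were thus found for 2.38% of members, against 11.6% of all siRNAs, those in day 22 alone for 0.94% against 1.81%, and those in day 37 alone for 1.73% against 0.61%. Set beside U-start 22-nt entries and all siRNAs, the gap at day 7 alone was found for 17.1% of members, 10.8% of U-start entries and 6.40% of all 7735 siRNAs. The gap at day 37 alone was found for 7.13%, 9.49% and 6.79% in the same order. By first base it was 7.49% for A, 6.07% for C and 14.4% for G, the last from 14 of 97 entries. The A- and C-start shares were thus close to that of all siRNAs, and the G-start share was higher. The remaining 384 were counted in only part of the libraries of some day.

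More members rose than fell by day 22. For day 22 over day 7, 212 A-start entries rose and 117 fell, 392 C-start entries rose and 165 fell, and 46 G-start entries rose and 22 fell, at an adjusted p under 0.05 in edgeR's quasi-likelihood test. Together 650 of 1286 tested members rose and 304 fell, while over all 7294 small RNAs tested 35.3% rose and 34.5% fell, 69.8% in all. The median log2 change was 0.76 for A, 0.86 for C and 0.67 for G, beside -0.01 over all small RNAs. Among U-start 22-nt entries 129 of 285 rose and 61 fell. With library totals in place of TMM factors, 59.7% of the C-start calls were rises, against 70.4% with TMM, and the median of all small RNAs was lower by 0.44 on the log2 scale.

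Between days 22 and 37 the split was closer. For day 37 over day 22, 170 A-start entries rose and 131 fell, 260 C-start entries rose and 211 fell, and 36 G-start entries rose and 28 fell. Over all small RNAs 18.8% rose and 31.8% fell, 50.6% in all, and of 285 U-start 22-nt entries tested 69 rose and 92 fell. The median log2 change was 0.15, 0.19 and 0.25 for A, C and G, beside -0.15 over all. The direction of this split depended on the scaling. With library totals the rises were 44.7%, 42.2% and 47.6% of the A-, C- and G-start calls, against 56.5%, 55.2% and 56.2% with TMM, and the median of all small RNAs moved by -0.47. With all reads as the library size they were 49.0%, 47.6% and 50.8%, with a shift of -0.28 in that median.

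Day 37 over day 7 had the most calls. There, 240 A-start entries rose and 134 fell, 393 C-start entries rose and 214 fell, and 47 G-start entries rose and 29 fell, while 33.1% of all small RNAs tested rose and 45.6% fell, 78.7% in all. The medians were 0.89 for A, 0.89 for C and 1.23 for G, beside -0.57 over all. Of 285 U-start 22-nt entries tested, 130 rose and 90 fell, with a median of 0.45, so rises outnumbered falls there too. With library totals, rises made up 51.1% of A-start and 50.7% of C-start calls, against 64.2% and 64.7% with TMM, and the median of all moved by -0.91. Many fitted values rest on a day at 0. With every 0 set to 9 reads, the median log2 ratio over all 467 A-start, 824 C-start and 97 G-start entries was 0.69, 0.51 and 0.69 for this contrast, 0.32, 0.37 and 0.06 for day 22 over day 7, and 0.32, 0.32 and 0.33 for day 37 over day 22.

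**Figure D3:**
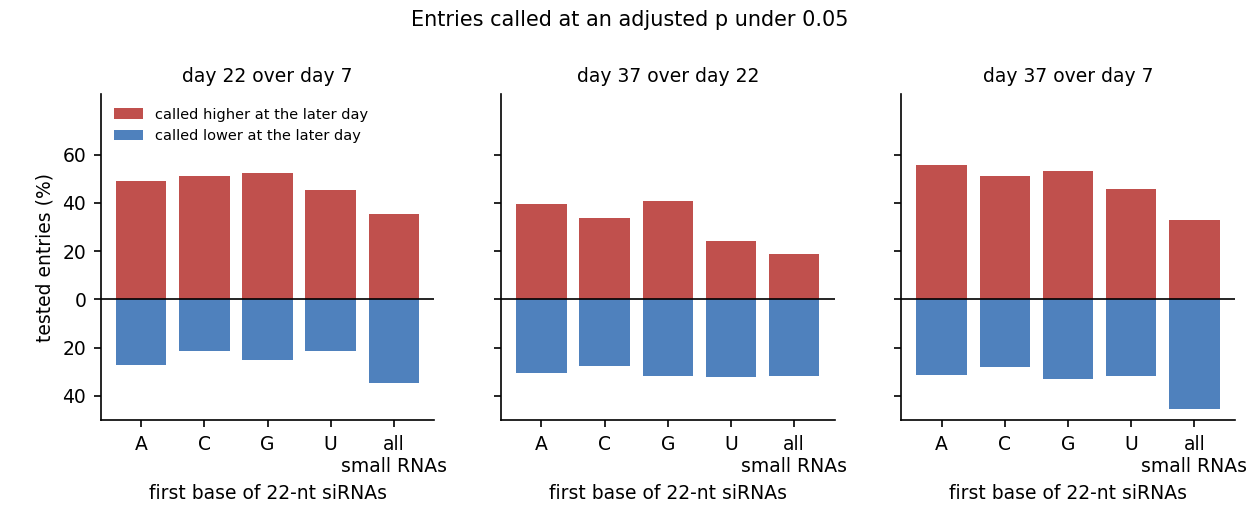
Percent of tested entries (y axis) called higher (red, above 0) or lower (blue, below 0) at the later day, by first base of 22-nt siRNAs and for all small RNAs (x axis), in 3 contrasts at an adjusted p under 0.05. Rises outnumber falls for A, C and G in each contrast under TMM factors, and with library totals falls outnumber rises in the contrast of day 37 over day 22.

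Taking both steps in turn, 374 of the 1286 tested members rose in both, 128 of them starting with A, 220 with C and 26 with G. That is 29.1% of the members tested, beside 14.0% of all small RNAs tested and 17.5% of U-start 22-nt entries. Falls in both steps were called for 201 members, 77 starting with A, 106 with C and 18 with G, which is 15.6%, close to the 14.5% over all. A rise to day 22 followed by a fall to day 37 was called for 104 members, 8.09% against 8.93% over all, and the opposite order for 20, 1.56% against 1.28% over all, none of them starting with G. No change was called in either step for 195 members, 15.2%, beside 18.3% of all small RNAs tested. These counts over both steps were made with TMM factors alone, and the split of the second step depended on the scaling, as given above.

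Among the abundant A-start entries, novel_sir17197 changed most. It had 607, 655 and 617 reads at day 7, 12711, 12165 and 14810 at day 22 and 21176, 37309 and 30697 at day 37. The groups did not overlap, and the day 37 libraries differed more among themselves than those of the earlier days. Its level was 202 ± 6.85 CPM at day 7, 3751 ± 103 at day 22 and 10457 ± 2149.7 at day 37. Between days, the log2 change was 4.22 ± 0.16 (SE) for day 22 over day 7 with an edgeR adjusted p of 6.45e-07, and 1.48 ± 0.14 for day 37 over day 22 with an adjusted p of 5.09e-05.

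The most abundant A-start entry over all libraries, novel_sir5940, was highest at day 22. It had 16868, 17489 and 16342 reads at day 7, 25859, 24896 and 29363 at day 22 and 10142, 13667 and 12866 at day 37. Its level was 5443 ± 295 CPM at day 7, 7581 ± 173 at day 22 and 4327 ± 367 at day 37, and the days did not overlap. It fell between days 22 and 37 by a log2 change of -0.81 ± 0.09 with an edgeR adjusted p of 8.88e-05. The rise to day 22, 0.48 ± 0.09, had an adjusted p of 0.00113 with TMM and did not pass with RLE factors or library totals.

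Entries novel_sir6306 and novel_sir10453 were also higher at day 22 than at day 7. For novel_sir6306 the level was 1317 ± 112 CPM at day 7, 3209 ± 438 at day 22 and 2774 ± 316 at day 37, a log2 change of 1.28 ± 0.13 for day 22 over day 7 with an adjusted p of 6.00e-05. For novel_sir10453 it was 1320.4 ± 62.2 CPM at day 7, 2699.7 ± 579 at day 22 and 2126 ± 192 at day 37, a change of 1.03 ± 0.15 with an adjusted p of 3.98e-04. In both, the later step did not pass the test, and the day 22 and day 37 libraries overlapped. It was called as a fall with library totals, at -0.68 for novel_sir6306 and -0.82 for novel_sir10453 with adjusted p-values of 0.00311 and 0.0035. With all reads as the library size it was -0.50 and -0.64 in the same order, with adjusted p-values of 0.0233 and 0.0171. For novel_sir10453 it was also called without the first day 22 library, at -0.47 with an adjusted p of 0.0321. The day 37 over day 7 change of novel_sir10453, 0.69 ± 0.15, turned to -0.23 with library totals. Entry novel_sir8198 stood at 1979 ± 64.5 CPM at day 7, 2044 ± 178 at day 22 and 3046 ± 54.1 at day 37, a change of 0.58 ± 0.08 for day 37 over day 22 with an adjusted p of 5.34e-04, which did not pass with library totals. Its change for day 37 over day 7 was 0.62 ± 0.08 and turned to -0.30 with library totals. The first step of novel_sir8198 did not pass with TMM and was called lower with RLE factors or library totals, at -0.30 and -0.41.

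Among C-start entries, novel_sir7416 led in abundance and rose in both steps. It had 4787, 5071 and 4661 reads at day 7, 19458, 19173 and 15199 at day 22 and 25800, 29252 and 32728 at day 37. Its level was 1558 ± 84.0 CPM at day 7, 5155 ± 1075 at day 22 and 10396 ± 988 at day 37, without overlap between days. The log2 changes were 1.73 ± 0.16 for day 22 over day 7 and 1.01 ± 0.16 for day 37 over day 22, with edgeR adjusted p-values of 3.23e-05 and 7.17e-04. Its guide has a GC content of 72.7%.

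Entry novel_sir8630, whose guide has the highest GC content of all members at 86.4%, rose in the first step. It had 1494, 1709 and 1746 reads at day 7, 15575, 14425 and 11467 at day 22 and 11013, 10799 and 12294 at day 37. The log2 change for day 22 over day 7 was 2.90 ± 0.17 with an adjusted p of 3.58e-06, and that for day 37 over day 22 did not pass the test, except as a fall of -0.43 with library totals. Entry novel_sir5648 was lowest at day 37. It had 16518, 16867 and 16534 reads at day 7, 16448, 15448 and 21118 at day 22 and 4648, 4460 and 5211 at day 37. The day 7 and day 22 read counts overlapped, and the change between these days did not pass with TMM but was called lower with RLE factors, at -0.45 with an adjusted p of 0.00859, and with library totals, at -0.55 with an adjusted p of 0.00232. The fall by day 37 was a log2 change of -1.55 ± 0.11 over day 22 with an adjusted p of 7.75e-06.

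Entry novel_sir8948 also changed in the second step, with 1319.6 ± 149.6 CPM at day 7, 1224 ± 95.7 at day 22 and 2793 ± 93.3 at day 37. Its log2 change for day 37 over day 22 was 1.19 ± 0.11 with an adjusted p of 3.28e-05. Its first step did not pass with all 9 libraries and TMM, and was called lower with RLE factors, with library totals or without the third day 7 library, at -0.45, -0.56 and -0.26. Entry novel_sir5851 had 7722, 7797 and 6948 reads at day 7, 7561, 7063 and 2423 at day 22 and 7932, 10244 and 10073 at day 37. The third day 22 library stood far below the other two of that day, and no contrast passed the test. Without that library the change for day 37 over day 22 was 0.64 with an adjusted p of 0.00157, and that for day 37 over day 7 was 0.42 with an adjusted p of 0.00327. With RLE or upper-quartile factors or with zeros at 9 reads, the change for day 37 over day 22 was 1.17, 1.17 and 1.11, with adjusted p-values of 0.0369, 0.0404 and 0.0364. With library totals, that for day 22 over day 7 was -1.01 with an adjusted p of 0.0425. The guide of novel_sir5851 shares 19 nt with the reverse complement of novel_sir8198.

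Of the 5 abundant G-start entries, 4 had their highest mean at day 37. Entry novel_sir10019 had 947, 786 and 126 reads at day 7, 3754, 3439 and 3676 at day 22 and 5920, 6015 and 5230 at day 37. The third day 7 library was far below the other two, and all day 7 values lay below those of later days. The log2 change was 2.35 ± 0.61 for day 22 over day 7 with an edgeR adjusted p of 0.00789, and without the third day 7 library it was 1.80. The second step did not pass the test with all 9 libraries. Without that day 7 library it passed, with a log2 change of 1.01 and an adjusted p of 6.44e-04.

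Entry novel_sir13388 had 342, 306 and 312 reads at day 7, 1217, 1161 and 1052 at day 22 and 4905, 5799 and 5190 at day 37. It rose in both steps, by log2 changes of 1.66 ± 0.13 and 2.52 ± 0.13, with adjusted p-values of 1.34e-05 and 1.77e-06, and its libraries did not overlap between days. Entry novel_sir13054 rose with it in the second step. Its level was 294 ± 64.3 CPM at day 7, 561 ± 155 at day 22 and 2412 ± 961 at day 37, a change of 2.10 ± 0.33 for day 37 over day 22 with an adjusted p of 7.35e-04, and the first day 37 library was the highest. Its first step, 0.93 ± 0.32, had an adjusted p of 0.0275 and did not pass with RLE factors, with library totals, without replicate 2 or 3 of day 7, or without replicate 1 or 2 of day 22.

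Entry novel_sir11448 stood at 779 ± 34.8 CPM at day 7, 783 ± 115 at day 22 and 1332 ± 133 at day 37, and its change of 0.77 ± 0.13 for day 37 over day 22 had an adjusted p of 0.00106 but did not pass with library totals. Its day 37 over day 7 change, 0.77 ± 0.13, turned to -0.14 with library totals. Entry novel_sir15465 was highest at day 22, with 554 ± 32.7 CPM at day 7, 887 ± 41.1 at day 22 and 553 ± 78.2 at day 37. It rose by 0.68 ± 0.11 for day 22 over day 7 with an adjusted p of 7.19e-04, which did not pass with library totals, and its change for day 37 over day 22 was -0.68 ± 0.11 with an adjusted p of 0.00101.

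**Figure D4:**
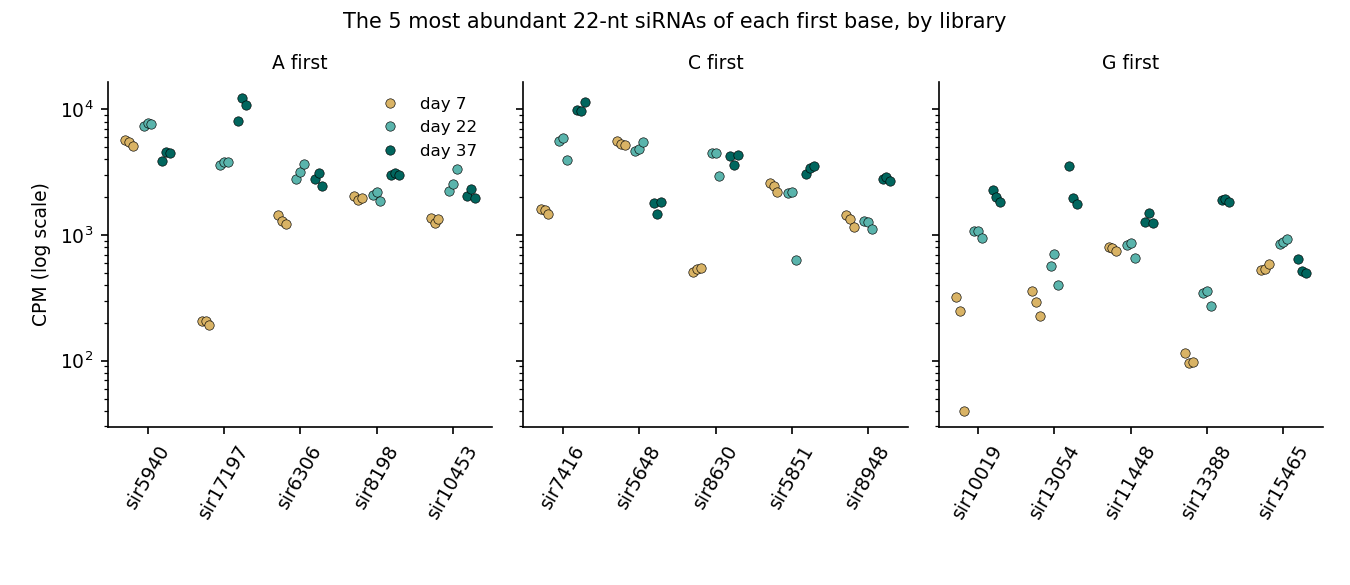
Level in CPM (y axis, log scale) of the 5 most abundant guides of each first base (x axis, names without the prefix), with a point per library coloured by day. novel_sir17197, novel_sir7416 and novel_sir13388 rise in both steps, novel_sir5648 is lowest at day 37, and single low libraries stand out for novel_sir10019 at day 7 and novel_sir5851 at day 22.

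Large rises came from entries at 0 or with few reads at day 7. Entries named for a rise or fall passed the test without overlap in the contrast that picked them, by the rule of choice. Entry novel_sir5239, starting with A, had 0, 0 and 0 reads at day 7, 546, 539 and 680 at day 22 and 1012, 1474 and 1255 at day 37. Its level was at least 57.5-fold higher at day 22 than at day 7 and at least 152-fold higher at day 37 than at day 7, with each 0 taken as 9 reads per library. Entry novel_sir19073, also A-start, was at least 55.4-fold and 136-fold higher in these contrasts, with 533, 522 and 644 reads at day 22 and 949, 1248 and 1142 at day 37. Both were chosen among entries past the threshold in these 2 contrasts. For day 37 over day 22, edgeR's adjusted p passed it as well.

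C-start entries gave the same kind of rise. Entry novel_sir9288 had 0, 0 and 0 reads at day 7, 582, 590 and 614 at day 22 and 992, 1313 and 1243 at day 37, at least 58.5-fold higher at day 22 and 144-fold higher at day 37 than at day 7. Entry novel_sir10765 was at least 47.9-fold and 132-fold higher in the same contrasts. The G-start entry novel_sir12307, whose guide overlaps that of novel_sir9288, had 20, 11 and 21 reads at day 7, 1042, 1049 and 1186 at day 22 and 1613, 2311 and 2088 at day 37. Here day 7 was above 0, and the level was 55.4-fold higher at day 22 and 126-fold higher at day 37 than at day 7. Entry novel_sir8475 had 10, 0 and 0 reads at day 7, 478, 501 and 726 at day 22 and 1136, 1529 and 1318 at day 37, at least 156-fold higher at day 37 than at day 7 with each 0 as 9 reads.

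Other entries rose for day 37 over day 22. The A-start entry novel_sir13602 had 11, 0 and 20 reads at day 7, 10, 0 and 40 at day 22 and 682, 247 and 291 at day 37, a log2 change of 5.00 ± 0.96 for day 37 over day 22 with an edgeR adjusted p of 0.00232. The first day 37 library was more than the sum of the other two, and days 7 and 22 overlapped. The A-start entry novel_sir7822 had 0, 0 and 0 reads at day 7, 0, 0 and 10 at day 22 and 144, 153 and 89 at day 37, and the C-start entry novel_sir14263 had 0, 0 and 0 reads at day 7, 11, 0 and 10 at day 22 and 138, 141 and 153 at day 37. Both were close to the listing limit before day 37, and their levels at day 37 were at least 17.3-fold and 18.0-fold above those of day 22. The rise of novel_sir14263 for day 22 over day 7, from counts at the limit, lost its call when zeros were set to 9 reads, without any 1 of the day 7 libraries, and without replicate 1 or 3 of day 22.

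Other late rises were those of the C-start entry novel_sir18467 and the G-start entries novel_sir9540 and novel_sir13348. Entry novel_sir18467 had 0, 0 and 0 reads at day 7, 15, 10 and 14 at day 22 and 89, 117 and 98 at day 37, 9.77-fold higher at day 37 than at day 22. Entry novel_sir9540 was at 0 in all 6 libraries of days 7 and 22, with 43, 88 and 78 reads at day 37, at least 9.51-fold above day 22. Entry novel_sir13348 had 116, 144 and 131 reads at day 7, 223, 219 and 273 at day 22 and 1496, 1126 and 1231 at day 37, with a log2 change of 2.77 ± 0.16 for day 37 over day 22 and an adjusted p of 3.01e-06.

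The largest falls ended at 0 or near it at day 37. The A-start entry novel_sir3293 had 1888, 1962 and 2167 reads at day 7, 337, 270 and 388 at day 22 and 15, 15 and 15 at day 37. Its log2 change was -2.78 ± 0.09 for day 22 over day 7 and -4.12 ± 0.12 for day 37 over day 22, with edgeR adjusted p-values of 5.61e-07 and 1.26e-07, and the days did not overlap. It shares a run of 13 nt with novel_sir15151, another A-start entry, which had 738, 878 and 832 reads at day 7, 18, 18 and 35 at day 22 and 0, 0 and 0 at day 37.

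Entry novel_sir17191, A-start, had 2120, 2193 and 2401 reads at day 7, 551, 530 and 619 at day 22 and 10, 27 and 28 at day 37, with changes of -2.16 ± 0.21 and -4.39 ± 0.25 in the 2 steps. Entry novel_sir1511 had 615, 586 and 604 reads at day 7, 18, 27 and 28 at day 22 and 0, 0 and 0 at day 37, and its guide shares 17 nt with that of the C-start entry novel_sir7470. That entry had 940, 1150 and 1000 reads at day 7, 306, 332 and 369 at day 22 and 0, 0 and 0 at day 37. Thus the first was near the listing limit at day 22 and the second was not. The A-start entry novel_sir8524 did not pass the test in the first step and fell in the second, with 230, 245 and 204 reads at day 7, 283, 267 and 355 at day 22 and 0, 11 and 0 at day 37, at least 24.9-fold lower at day 37 than at day 22 with zeros as 9 reads.

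C-start falls also ended at 0. Entry novel_sir17319 had 1049, 1106 and 1236 reads at day 7, 162, 177 and 192 at day 22 and 0, 0 and 0 at day 37, and its change for day 22 over day 7 was -2.85 ± 0.10 with an adjusted p of 3.38e-06. At day 37 it was at least 113-fold lower than at day 7. Entry novel_sir11520 had 1013, 1069 and 1072 reads at day 7, 26, 32 and 24 at day 22 and 0, 0 and 0 at day 37, at least 105-fold lower at day 37 than at day 7. Entry novel_sir12006 had 1021, 1051 and 1064 reads at day 7, 314, 279 and 368 at day 22 and 0, 0 and 0 at day 37, at least 28.2-fold lower at day 37 than at day 22. Entry novel_sir14390 fell in the first step, with 372, 372 and 432 reads at day 7, 23, 11 and 21 at day 22 and 0 in every day 37 library. Each of these was lower in every later library than in any earlier one. The rule of choice required this in the contrast that picked each entry.

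G-start falls included both entries of the shared guide. Entry novel_sir7554 had 1280, 1357 and 1424 reads at day 7, 206, 201 and 229 at day 22 and 0, 0 and 0 at day 37, a change of -2.85 ± 0.08 for day 22 over day 7 with an adjusted p of 1.32e-06. Entry novel_sir7553, with the same guide and another passenger, had 459, 417 and 455 reads at day 7, 12, 0 and 0 at day 22 and 0, 0 and 0 at day 37. At day 7 novel_sir7554 was the higher of the pair in every library, and both were at 0 in every library of day 37. Entry novel_sir16289 had 355, 379 and 312 reads at day 7, 11, 12 and 23 at day 22 and 0, 0 and 0 at day 37, and novel_sir11806 had 398, 427 and 513 reads at day 7, 133, 125 and 140 at day 22 and 0, 0 and 0 at day 37. At day 37 these were at least 35.0-fold and 44.6-fold lower than at day 7.

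Overlapping guides moved together in several sequence families, which were built by joining guides that share at least 18 nt on either strand. The 1388 entries fell into 1091 families. In 194 of these there were 2 or more members, 491 members in all, and 599 members shared no such stretch with any other counted guide. Listed duplexes without counts were not searched for it. The 8 families with at least 6 members were described. Their members share sequence and so are not independent observations of a change. Entries with the same guide and different passengers were counted as separate members.

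The family led by novel_sir17197 has 7 members, 5 starting with A and 2 with C. Its summed reads were 888, 891 and 816 at day 7, 14374, 13694 and 16926 at day 22, and 24435, 41986 and 34507 at day 37. All 6 tested members rose by day 22, and 5 of 6 rose again by day 37, and with library totals 5 of 6 rose in each step. The summed level was 15.2-fold higher at day 22 than at day 7 and 2.79-fold higher at day 37 than at day 22, and novel_sir17197 made up most of it. Another member, novel_sir13922, had 202, 169 and 137 reads at day 7, 1340, 1215 and 1676 at day 22 and 2687, 3942 and 3167 at day 37. Of the 7 tested entries of the family that are not members, 6 rose by day 22 and 7 by day 37 over day 22.

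The family led by novel_sir17319 had the opposite course. Its 7 members had summed reads of 2585, 2827 and 2976 at day 7, 552, 503 and 631 at day 22, and 0 in every day 37 library. All 7 fell in both steps, under each of the 5 scalings tried, and the sum was 5.64-fold lower at day 22 than at day 7. The members start with C, A and G, and their guides lie on both strands of the shared stretch. With zeros at 9 reads, 6 of 7 fell in the second step, and the ratio of day 37 to day 22 was then 0.83 for novel_sir15021, whose fall in that step rests on the zeros. Of the 5 other tested entries of that family, 5 fell by day 22 and 3 by day 37 over day 22.

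The family led by novel_sir4519 holds 6 entries, all of them members. Summed reads were 8303, 9058 and 8280 at day 7, 3217, 2966 and 3814 at day 22, and 358, 546 and 452 at day 37. All 6 fell in both steps under each of the 5 scalings, and 5 of 6 in the second step without the third library of day 7 or of day 22. With zeros at 9 reads, 4 of 6 fell in the second step. The ratio of day 37 to day 22 was then 0.97 for novel_sir10340 and 0.74 for novel_sir10783, whose libraries of these days overlapped, so both falls rest on the zeros. The sum was 2.92-fold lower at day 22 than at day 7 and 5.91-fold lower at day 37 than at day 22. Entry novel_sir4519 had 5131, 5462 and 4914 reads at day 7, 1639, 1449 and 1852 at day 22 and 188, 292 and 215 at day 37, and novel_sir16644, whose guide overlaps its 3′ part, had 1857, 2210 and 2120 reads at day 7, 1095, 1105 and 1389 at day 22 and 124, 191 and 182 at day 37.

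Another 4 families stood higher at day 37 than at day 22. Led by novel_sir8438, novel_sir5851, novel_sir8410 and novel_sir5170, their summed levels at day 37 were 2.05-, 1.90-, 2.56- and 2.13-fold those at day 22. Of their tested members, 6 of 8, 5 of 6, 6 of 6 and 3 of 6 rose in that step, and none fell. With library totals, 5, 3, 5 and 3 rose, and none fell. The files give no source for these guides, and whether they match ribosomal or other structural RNA was not tested, so the values are those of reads with these sequences. Without the third day 22 library, which held 11440 reads of the novel_sir5851 family against 17468 and 16857 in the others of that day, all 6 of that family rose. For day 37 over day 7, 1 member of each of the last 3 of these families was called lower with library totals and none with TMM. In the family of novel_sir8438, 4 rose and 3 fell in this contrast with library totals, against 5 and 1 with TMM. In the family of novel_sir8438 the members differed, since 3 rose and 3 fell for day 22 over day 7. With library totals 2 rose and 4 fell. Of those that fell with TMM, novel_sir5811 and novel_sir5810 share a guide. The family led by novel_sir18348 was highest at day 22, with summed reads of 195, 243 and 219 at day 7, 792, 782 and 855 at day 22, and 467, 558 and 503 at day 37. There 5 of 5 tested members rose by day 22 with TMM, and 3 with RLE factors or library totals. Among these 5, novel_sir18348 and novel_sir18346 share a guide, and so do novel_sir7737 and novel_sir7738.

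**Figure D5:**
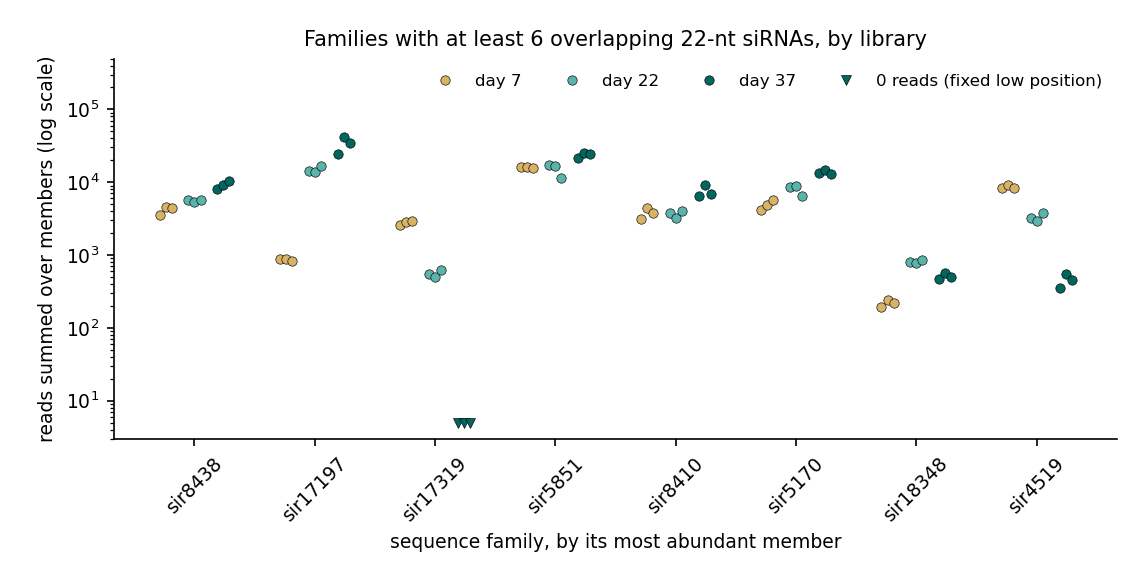
Reads summed over members (y axis, log scale) for the 8 sequence families with at least 6 members (x axis, by lead entry without the prefix), with a point per library coloured by day. The family of novel_sir17197 is highest at day 37, that of novel_sir17319 is at 0 in all 3 day 37 libraries (triangles), and that of novel_sir4519 falls at each step.

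Members were also set beside shorter guides of the same start. In 158 cases, 69 A-start, 82 C-start and 7 G-start, the guide is a counted 21-nt guide with 1 more base at its 3′ end. Both partners were tested in 136 pairs. For day 22 over day 7 both were called in 81 pairs, of which 80 moved in the same direction, 62 up and 18 down. A rise was called for the 21-nt guide, with its tested partner not called, in 25 pairs, and for the 22-nt guide in 12. Such falls were called in 1 and 4 pairs. For day 37 over day 22 both were called in 65 pairs, and all 65 moved in the same direction, 36 up and 29 down. For day 37 over day 7 both were called in 91 pairs, with 87 in the same direction and 4 in opposite ones. In G-start pairs, summed reads of 22-nt guides were 335, 421 and 373 at day 7 and 3481, 2831 and 3003 at day 37. Those of their 21-nt partners were 1189, 1252 and 1119 at day 7 and 571, 666 and 669 at day 37. The 22-nt part of A-start pair reads was 70.3% to 71.2% at day 7 and 74.4% to 76.8% at day 37. In C-start pairs it was 50.2% to 51.0% at day 7 and 52.5% to 55.7% at day 37. The partners share all but 1 base, and whether reads of one length were counted for the other was not tested.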

How the data were processed

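Small RNA of 18 to 30 nt was sequenced in 9 libraries, 3 at each of days 7, 22 and 37, per the labels' protocols, with adapters that carry unique molecular identifiers. The submitters' processing notes name Bowtie2; its version and role are not given there, nor are the genome build, the counting tool or any collapsing of reads. The deposited counts are whole numbers of reads per entry, not normalized by the authors per the file headers. A deposited column headed TPM sums to nearly the reads, so it was used as a score and only as an alternative. Guide and passenger letters were used as deposited. The gene table of another source was not used, since siRNAs carry no position or gene name.

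Counts were tested in edgeR 4.0.16 (R 4.3.3) with TMM factors, filterByExpr by day and the quasi-likelihood F test in 1 fit of the 9 libraries, with Benjamini-Hochberg adjustment over all 7294 entries tested and a threshold of 0.05. Changes are log2, later over earlier day, with SE. The SE was worked out as the absolute log2 change divided by the square root of the F statistic. Folds against a day at 0 set each 0 to 9 reads, an assumption. They are lower bounds that cover neither counting error nor spread. Shares were compared by exact two-sided permutation tests. Named entries were, per first base, the 5 most abundant and, per contrast, the 2 largest rises and falls among those past the threshold that averaged at least 10 CPM without overlap between days, 1 entry per guide in each such list and 41 in all. Log2 changes are given only where they passed the test, except where a left-out library or another setting is named. The 8 families described were those with at least 6 members. The members, lists and tests were chosen with earlier results of these data known. The fitting step was tested on simulated data with few changed entries, balanced in direction, so that test does not bear on the choice of scaling. Deviations from the day means correlated at -0.031 to 0.12 between same-numbered libraries and at -0.13 to 0.042 between others. These values are small, and replicate numbers were not used as pairs in the main fit. Alternatives were RLE and upper-quartile factors, library totals, all reads as library size, other filters, zeros at 9 reads, 1 entry per guide, leaving out the 10 most abundant entries, DESeq2 1.42.0, limma 3.58.1 on the TPM column, the replicate block and leaving out each library. Figures were drawn with matplotlib 3.10.9. 1 further 22-nt siRNA is not reported here.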

Additional observations from a re-analysis of the deposited data

How the results depend on the processing

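The counts of A-, C- and G-start entries called in each direction stayed within 1.5 times the reported count in all 216 comparisons with another setting and in all 162 with a library left out. The replicate block gave 196 A-start, 355 C-start and 39 G-start rises for day 22 over day 7, beside 212, 392 and 46 without it. Of the log2 changes of named entries that passed the test, 3 turned, all for day 37 over day 7 with library totals: novel_sir8198 at -0.30, novel_sir10453 at -0.23 and novel_sir11448 at -0.14. A further 13 no longer passed under 1 or more other settings, with the same sign, in 18 comparisons, and 3 without 1 or more libraries, in 10 comparisons. Of 17 changes of named entries that did not pass, 11 passed under another setting, 9 of these with library totals, and 5 passed without a library, 13 in all. Besides those given in the report, these were day 22 over day 7 for novel_sir8524 with zeros at 9 reads, at 0.30, and for novel_sir11448 with RLE factors and library totals, at -0.34 and -0.45, and day 37 over day 7 for novel_sir15465 with library totals, at -0.93. The causes were not tested.

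Differences in shares of small RNA reads turned with all reads as the denominator. A-start differences were then 0.17, 0.037 and 0.21 percentage points for day 22 over day 7, day 37 over day 22 and day 37 over day 7. C-start differences were 0.14 for day 22 over day 7 and 0.26 for day 37 over day 7, and the G-start difference for day 22 over day 7 was 0.033. Without the 10 most abundant entries, A-start differences were 0.29 for day 22 over day 7 and 0.13 for day 37 over day 7, and the G-start difference for day 22 over day 7 was 0.094. With the TPM column, the G-start difference for day 22 over day 7 was 0.014 and the C-start difference for day 37 over day 22 was -0.20. Of shares of 22-nt reads, the A-start difference for day 22 over day 7 was 1.58 without the 10 most abundant 22-nt entries and 0.50 with the TPM column, and the C-start difference for day 37 over day 22 was 1.96 and 0.82. Leaving out a library gave ranges that cross 0 for 3 differences: -0.051 to 0.31 for the C-start share of small RNA reads, day 37 over day 22; -0.54 to 0.24 for the A-start share of 22-nt reads, day 22 over day 7; and -1.14 to 0.055 for the C-start share of 22-nt reads, day 37 over day 22.

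Depth limits entries near the listing limit of 10 reads, where a 0 cannot be told apart from up to 9 reads.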
